A study of Homo sapiens with 7 samples.

Results

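The regions described here are m6A peaks that lie in the 3' UTR, more than 200 nt past the stop codon, in an exon shorter than 2000 nt. They were taken from the deposited HepG2 table by its segment label (UTR3) and its exon length for each peak, and not by peak strength or expression. The rule kept 1193 of the table's 12769 peaks (9.34%, 95% Wilson interval 8.85 to 9.86%), in 1006 transcripts of 1003 gene symbols. They made up 46.8% of the 2547 3' UTR peaks. The other 1354 lay in exons of 2000 nt and over and are the main set for comparison.

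The cells were labelled HepG2, the name of a human hepatocellular carcinoma line, and untreated. The table showed only a part of the secreted liver proteins known from that line. Of 30 plasma protein genes of the liver, 18 were at the lowest expression quantile of the table (0.314), among them the albumin gene ALB, the fetal albumin homologue AFP, the transport protein gene TTR, the apolipoprotein genes APOB and APOA2 and the protease inhibitor gene SERPINA1. The other 12 were above it. APOA1 stood at 0.403, the fibrinogen gene FGB at 0.619, VTN at 0.684, FN1 at 0.763 and the complement gene C3 at 0.960. The label is therefore given here as a label only. The series held 4 libraries after precipitation of fragmented poly(A) RNA (about 100 nt) with an anti-m6A antibody and 3 input libraries without antibody. The table gives 1 set of values for all 7 libraries together. No value belongs to a single library, so there is no replicate error, the depth is unknown and no difference below was tested. Intervals cover counting error among the listed peaks or transcripts only, and peaks of 1 transcript are not independent of each other.

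N6-methyladenosine is placed on messenger RNA in the nucleus by a complex built around METTL3 and METTL14, mostly within the consensus RRACH, where R stands for a purine and H for any base but G (T is printed for U). The mark is densest in long internal exons, around stop codons and in 3' UTRs. Proteins of the YTH domain family read it, and marked 3' UTRs are known for effects on mRNA decay, translation and choice of polyadenylation site.

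Sequences near strong peaks of the set are shown first, because the consensus is the feature these regions share that the rule did not use. Positions could be placed on a GENCODE release 29 transcript of the same genomic span for 113 of the 1193 peaks. The windows below are 11 of the 12 highest-scoring of these with an RRACH within 50 nt of the listed position. Each is 29 nt, read 5' to 3' on the transcript strand, with the RRACH nearest to the listed position in capitals. Coordinates are GRCh38 positions of the window in GENCODE 29, while all other positions in the text are those of the deposited table, which count from the transcript's 5' end.
TCTN3 (chr10:95663639-95663667, minus strand): tagcttccctctGGACTgtagaggagcta
XPO6 (chr16:28098197-28098225, minus strand): cagaattgccaaGGACAgctcacgacagt
NFKBIE (chr6:44258858-44258886, minus strand): agtaggaagcatGGACTctcctgagtgag
BACE2 (chr21:41276460-41276488, plus strand): tcccaacagccaAGACCcaacaggtgctg
SBF2 (chr11:9779950-9779978, minus strand): gtttcctatgagAGACAtctacttgtaat
PINK1 (chr1:20651014-20651042, plus strand): ccctaacacgagGAACTcgtttgaagggg
FRAP1 (chr1:11107083-11107111, minus strand): catgggtacagcAAACTcagcacagccaa
LITAF (chr16:11549411-11549439, minus strand): taggacttgcaaAGACAttccccttgagt
FBXL19 (chr16:30948065-30948093, plus strand): cggggtgtgaggGGACTggaccagcttgg
COG8 (chr16:69328874-69328902, minus strand): ccaaggcatggcAGACTgagctggaggaa
CD320 (chr19:8302219-8302247, minus strand): ctgccacagccaGAACTgaggggctggcc

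In all 11 the RRACH lay in the 3' UTR part of the last exon, between 212 nt (LITAF) and 850 nt (BACE2) past the stop codon. The peak scores, which are the authors' and have no stated scale, ran from 4.33 for CD320, the receptor that takes up transcobalamin-bound vitamin B12, to 5.56 for TCTN3, a protein of the ciliary transition zone. XPO6, the nuclear exporter of actin, scored 4.84, and NFKBIE, an inhibitor of NF-kB, scored 4.70. PINK1, the kinase that marks damaged mitochondria, scored 4.62, and FRAP1 (now MTOR), the kinase of the TORC complexes, 4.51. The nearest RRACH was GGACT in TCTN3, NFKBIE and FBXL19 and GGACA in XPO6. In the other 7 windows the nearest RRACH had an A among its first 2 bases, so the nearest RRACH varied even among high scores. The LITAF window also held a GGACT, in lower case, upstream of its AGACA. Which adenosine carried the mark cannot be read from fragments of about 100 nt.

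Higher-scoring peaks of the set were not among the exact matches. For 2 of those shown here a transcript with the same last exon and a span within 10 nt could be used, a match added after the data were seen.
CCDC134 (chr22:41826095-41826123, plus strand): ggatgcctgcctGGACCctgttggtggct
TSEN54 (chr17:75524609-75524637, plus strand): ctctggaactcaGGACTcgattttaagga

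CCDC134 scored 6.08 with GGACC 286 nt past the stop codon, and TSEN54, a subunit of the tRNA splicing endonuclease, scored 6.04 with GGACT 211 nt past it. Both windows had a GGAC core within 5 nt of the listed position.

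Across the placed regions RRACH and GGACT were both more frequent near the peak than away from it. Of 111 regions with complete windows, 102 had RRACH within 50 nt (91.9%, Wilson interval 85.3 to 95.7%). Of windows 300 nt away on the same transcripts, 87 did (78.4%, 69.8 to 85.0%), and the intervals were barely apart. Near and distant windows are paired by region. The intervals here and in the next paragraph leave out this pairing and do not measure the paired difference. GGACT was found near 36 regions (32.4%, 24.4 to 41.6%) and in 12 distant windows (10.8%, 6.29 to 17.95%). Windows were read on the transcript strand only, each distant window lay downstream where the transcript was long enough and otherwise upstream, and RRACH counts include GGACT. Matching by the last exon alone, also added after the data were seen, placed 366 regions with windows and gave 91.8% for RRACH and 32.2% for GGACT, against 77.9% and 10.7% in distant windows.

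GGACA stood beside GGACT, near 36 of the 111 regions against 14 distant windows. AGACT was near 21 against 12. In the larger match GGACA was near 98 of 366 (26.8%) against 54 distant windows (14.8%), and AGACT near 71 (19.4%) against 35 (9.56%). The 3 pentamers that start with AAAC were each near 7.10 to 8.20% of the 366 regions and in 9.29 to 11.5% of distant windows. In the larger match the intervals near the peak and away from it were separate for these 2 and for GGACT, and overlapped for the other 9 pentamers of the consensus.

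**Figure D1:**
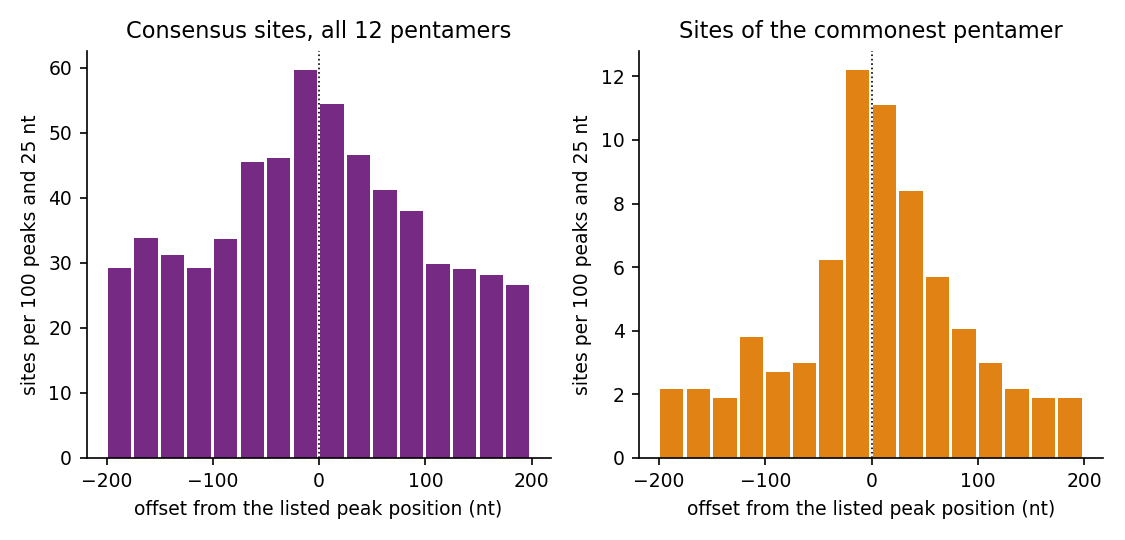
Consensus RRACH sites (left) and GGACT sites (right) per 100 regions in bins of 25 nt, by distance in nt of the site's central A from the listed peak position, for the 369 regions matched by their last exon. Both are highest in the bins next to the listed position, at 59.6 and 54.5 RRACH sites and at 12.2 and 11.1 GGACT sites per 100 regions, just upstream and just downstream.

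The sites gathered at the listed position itself. In the 25 nt upstream of it there were 59.6 RRACH sites per 100 regions, against 29.3 in the bin from -200 to -176 nt. For GGACT the same bins held 12.2 and 2.17 sites. The 9 exactly matched regions with no RRACH within 50 nt were led by PIP4K2C, a phosphatidylinositol phosphate kinase (score 4.32), and DDX31, a DEAD box helicase (3.67). Their median score was 2.97 (order statistic interval 2.43 to 3.67), against 3.07 (2.95 to 3.35) for 66 regions with RRACH but no GGACT and 3.36 (3.11 to 3.66) for 36 regions with GGACT. These intervals overlapped.

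Compared with 3' UTR peaks of longer exons and with stop codon peaks, the motif shares around the regions had overlapping intervals. RRACH was within 50 nt of 91.0% of 122 peaks in exons of 2000 nt and over (84.6 to 94.9%) and of 93.8% of 96 stop codon peaks in exons under 1000 nt (87.0 to 97.1%). GGACT was near 29.5% (22.1 to 38.1%) and 42.7% (33.3 to 52.7%) of them. Over all 1238 placed peaks of the table the shares were 89.6% for RRACH and 30.4% for GGACT. Median GC content of the windows was 57.4% in the regions (54.5 to 59.4%), 55.4% in the longer exons (52.5 to 57.4%) and 57.4% at stop codons (55.4 to 60.4%). The polyadenylation signal AATAAA was in 0 of 111 windows, which allows a share of up to 3.35% (Wilson), and in 6 of 366 windows (1.64%) of the larger match. Distant windows held it in 1 of 111 (0.90%) and in 12 of 366 (3.28%). It was near 2.46% of the peaks in longer exons, 2.08% of the stop codon peaks and 1.13% of all placed peaks. The absence of AATAAA therefore does not set the regions apart. A further 2 regions lay within 50 nt of the transcript end and had no complete window, so the stretch nearest to the cleavage site is not covered by these counts. With windows of 30 nt, which take in 1 more region, AATAAA was in 0.893% of windows near the regions and in 0.893% of distant ones.

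Where the exact match gave a position, all 113 regions lay in the last exon of the transcript (Wilson interval 96.7 to 100%). Their median distance was 420 nt past the stop codon (interval 399 to 482, quartiles 298 to 711), 620 nt from the last exon junction and 484 nt before the transcript's 3' end (398 to 586). The nearest to the last junction was 281 nt away. With 374 nt (316 to 424), the distance to the 3' end was shorter in the match by the last exon, while the distance to the stop codon was 416 nt. The exon limit caps these distances in the set and not in the longer exons, so the following difference is set by the rule. Peaks in longer exons lay at 720.5 nt from the stop codon (589 to 1047) and 1655 nt from the 3' end. Likewise, within 400 nt of the stop codon were 47 of 113 regions (41.6%, 32.9 to 50.8%) and 31 of 122 peaks of longer exons (25.4%, 18.5 to 33.8%).

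Density was also taken per length of 3' UTR. In matched, expressed transcripts with the stop codon in a last exon under 2000 nt, 107 regions lay in 499505 nt of 3' UTR beyond 200 nt, which is 2.14 per 10000 nt (exact Poisson interval 1.76 to 2.59). Transcripts with longer last exons had 120 peaks in 1273642 nt, or 0.94 per 10000 nt (0.78 to 1.13). Per transcript the order was reversed, with such a peak in 92 of 880 (10.5%, 8.60 to 12.7%) against 80 of 470 (17.0%, 13.9 to 20.7%). Between 200 and 300 nt past the stop codon the densities were 3.53 (2.36 to 5.07) and 3.41 (1.95 to 5.54). They were 2.52 (1.41 to 4.16) and 0.79 (0.32 to 1.64) between 800 and 1000 nt. The intervals overlapped in each distance bin from the stop codon. The longer exons had the higher value in 4 of the 8 bins, such as 2.99 against 2.27 between 300 and 400 nt and 2.16 against 1.15 between 500 and 600 nt. The groups differed in expression, with median quantiles of 0.664 and 0.598. Above a quantile of 0.7 the overall densities were 4.08 (3.31 to 4.99) and 2.78 (2.25 to 3.40), and those between 200 and 300 nt were 6.68 (4.32 to 9.86) and 10.0 (5.47 to 16.8). At these quantiles 20.1% (16.5 to 24.3%) and 41.4% (33.6 to 49.7%) of the transcripts had a peak.

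**Figure D2:**
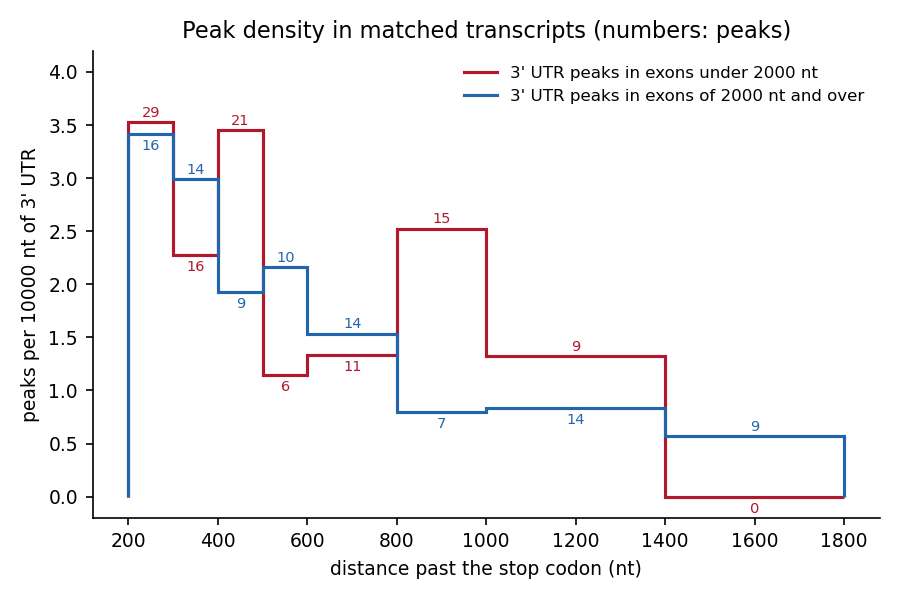
Peaks per 10000 nt of 3' UTR (vertical axis) by distance past the stop codon in nt (horizontal axis), for matched, expressed transcripts whose last exon is under 2000 nt (red) or longer (blue), with the number of peaks in each bin. The lines start together at 3.53 and 3.41, and beyond 800 nt the red line is at 2.52, 1.33 and 0 where the blue is at 0.79, 0.83 and 0.57.

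Near the transcript end regions were sparse. The last 50 nt held 2 regions in 42553 nt (0.47 per 10000 nt) and the 50 nt before them 4 (1.01), against 3.45 from 200 to 299 nt before the end. No such trend ran through the bins beyond, where the density was 0.38 from 300 to 399 nt and 2.67 from 400 to 599 nt. The counts per bin were small, from 2 to 22. Counted from the transcript end, the regions were denser than peaks of longer exons from 400 to 599 nt, at 2.67 (1.67 to 4.04) against 0.66 (0.24 to 1.43), and from 600 to 799 nt, at 2.36 (1.29 to 3.95) against 0.45 (0.12 to 1.16). From 1200 to 1599 nt the values were 4.75 (2.37 to 8.50) and 1.07 (0.62 to 1.72). The median 3' UTR was 655.5 nt in the transcripts with shorter last exons and 2515.5 nt in the others. Sites at equal distance from the end thus differ in distance from the stop codon. How this goes with distance from the stop codon was not tested.

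In ZNF213 and ZFP41, both zinc finger genes, 3' UTR peaks were listed in 2 exons of 1 transcript. ZNF213 had regions in exon 6 (1578 nt, score 2.42) and exon 8 (357 nt, 2.59). ZFP41 had regions of 2.40 and 4.11 in exon 2 (1651 nt), and its peaks in exon 3 (2931 nt) are outside the set. Of 294 transcripts with 1 region and 1 stop codon peak, 6 had these in different exons, among them TRRAP, a scaffold of histone acetyltransferase complexes, with 5.71 in exon 71 and the region, 5.28, in exon 72. The stop codon segment reaches 200 nt to either side of the stop codon, so in these 6 the side on which the stop codon lies is not known. Such cases were singled out after their values were seen.

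By exon length, 33 regions (2.77%) lay in exons under 500 nt, 340 (28.5%) in those of 500 to under 1000 nt, 411 (34.5%) in those of 1000 to under 1500 nt and 409 (34.3%) above. The 5 regions in the shortest exons were in C17orf89 (312 nt, score 2.42), RFWD2 (340 nt, 4.84), PUSL1 (348 nt, 2.12), ZNF213 (357 nt, 2.59) and RALGPS2 (378 nt, 4.63). RFWD2, now COP1, is a ubiquitin ligase that targets transcription factors. Scores in these 5 exons thus ran from 2.12 to 4.84. At the limit of the rule, the last inside were LRRC59 (1998 nt, 2.26) and TATDN2 (1998 nt, 2.15 and 2.78), and the first outside PHF2 (2000 nt, 3.65), TLE3 (2001 nt, 2.46) and CAMK2G (2005 nt, 5.36).

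Exon numbers ran from 1 to 146. In exon 1 lay 22 regions (1.84%) of 20 transcripts, which included the transcription factors CEBPB (4.04) and JUNB (2.00), the histone H2AFX (3.38 and 3.03), the 14-3-3 protein SFN (2.02), the tight junction protein CLDN3 (3.11) and the Notch regulator NRARP (3.52). At the other end were SYNE1, which links the nucleus to the cytoskeleton (exon 146, score 4.21), the ribosome assembly ATPase MDN1 (exon 102, 3.39), the basement membrane proteoglycan HSPG2 (exon 97, 3.76), the linker DST (exon 94, 2.14), the ubiquitin ligase HUWE1 (exon 81, 3.16) and TRRAP. Peaks in exon 1 had a median score of 2.99 (2.41 to 3.46), an interval that covers the median of the whole set.

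Scores of the set ran from 2.00 to 7.91 with a median of 3.16 (order statistic interval 3.08 to 3.23, quartiles 2.51 and 3.91). The 15 highest belonged to genes of varied function, of which 14 are named here. DOCK5, a Rac guanine nucleotide exchange factor, led at 7.91 (chromosome 8, 25098204 to 25326536 in the table's build, which is not given in the sources used here). It was followed by DDX23, a spliceosomal helicase, at 7.30 (chromosome 12, 47509806 to 47532224), and SPG7, the mitochondrial protease paraplegin, at 7.19 (chromosome 16, 88102306 to 88151675). UHRF1, which reads hemimethylated DNA during replication, scored 6.99 (chromosome 19, 4860510 to 4913165). Further down were C6orf62 at 6.72, the nuclear pore membrane protein NUP210 at 6.62, the RAF family kinase ARAF at 6.45 and the mitochondrial leucyl-tRNA synthetase LARS2 also at 6.45. DLGAP4 scored 6.42, LYPD1 6.22, the collagen lysyl hydroxylase PLOD1 6.13 and WDR59, a subunit of the GATOR2 complex of nutrient sensing, 6.10. CCDC134 and TSEN54 closed the 15. The 14 peaks lay in exons of 478 nt (TSEN54) to 1910 nt (DOCK5), and their transcripts had expression quantiles from 0.607 (LYPD1) to 0.982 (NUP210).

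As a set the regions scored like all peaks and a little under their neighbours. The median was 3.15 for all peaks (3.12 to 3.17), 3.27 for 3' UTR peaks in longer exons (3.19 to 3.34) and 3.32 for stop codon peaks in exons under 1000 nt (3.22 to 3.38). The difference was -0.12 from the longer exons (interval -0.22 to -0.0058) and -0.16 from the stop codon peaks (-0.26 to -0.038). With the limit at 1000 nt the difference from longer exons was -0.067, and its interval spanned 0 (-0.20 to 0.071). With the limit at 2000 nt it was 0.016 from coding sequence peaks (-0.071 to 0.101). Scores of 5 or more were held by 88 of the 1193 regions (7.38%, 6.03 to 9.0%), against 8.05% (6.72 to 9.62%) in longer exons and 8.60% (7.11 to 10.4%) at stop codons. These intervals overlapped.

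**Figure D3:**
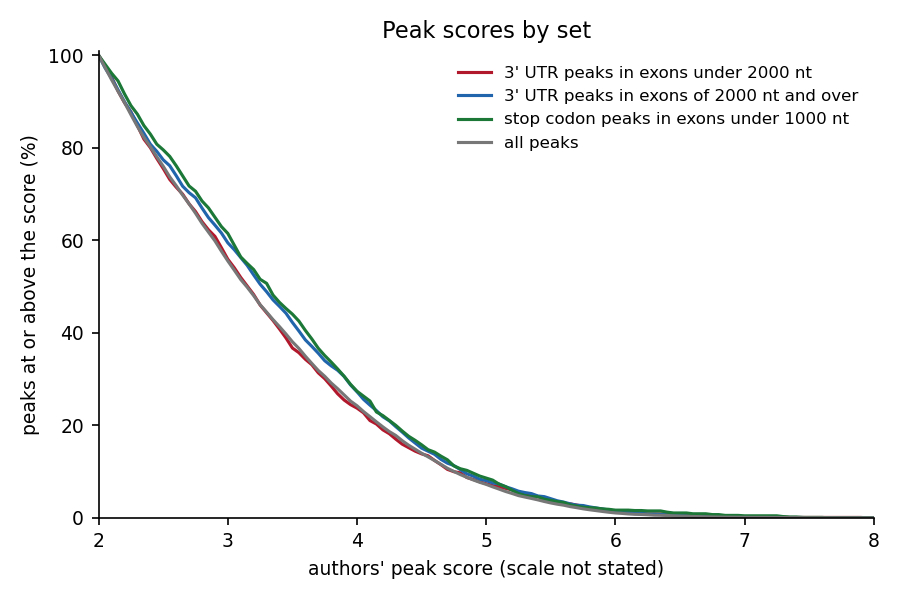
Share of peaks (%, vertical axis) at or above each peak score (horizontal axis, scale not stated) for the 1193 regions (red), 3' UTR peaks in longer exons (blue), stop codon peaks in exons under 1000 nt (green) and all peaks (grey). The red line follows the grey one, and at a score of 4 stands at 23.7% against 27.3% for the blue and 27.4% for the green.

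Expression differed more clearly than score. Transcripts with a region had a median expression quantile of 0.860 (0.850 to 0.870), and those with a 3' UTR peak in a longer exon 0.788 (0.776 to 0.798). The difference was 0.072 (0.058 to 0.087). Matched, expressed transcripts with a last exon under 2000 nt or longer, with or without a peak, also differed, with medians of 0.664 and 0.598. How far the difference belongs to the exon class and not to the peaks was not tested. Stop codon peaks in exons under 1000 nt were in transcripts with a median of 0.872 (difference -0.012, -0.024 to 0.0014). Within the set the quantile went down from 0.903 (0.840 to 0.935, 33 regions) in exons under 500 nt to 0.833 (0.820 to 0.849) in those of 1500 nt and over. These intervals overlapped. For the 340 regions in exons of 500 to under 1000 nt the quantile was 0.887 (0.875 to 0.901), an interval separate from that of the longest exons. Spearman's rho of quantile with exon length was -0.15.

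Of 15273 coding transcripts above the lowest quantile, 6.59% had a region and 5.74% a 3' UTR peak in a longer exon. The shares crossed along the expression scale. At quantiles of 0.6 to 0.7, 4.38% of 2305 transcripts had a region (3.62 to 5.30%) and 7.42% a peak in a longer exon (6.42 to 8.56%). At 0.9 to 0.98, 14.9% of 2035 had a region (13.4 to 16.5%) and 6.49% the other (5.50 to 7.64%). Above 0.98 the values were 11.9% (9.33 to 15.0%) and 2.02% (1.10 to 3.67%). How many transcripts of each bin have a last exon short or long enough was not counted for the whole table, so these are shares of all transcripts and not of those that could qualify.

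**Figure D4:**
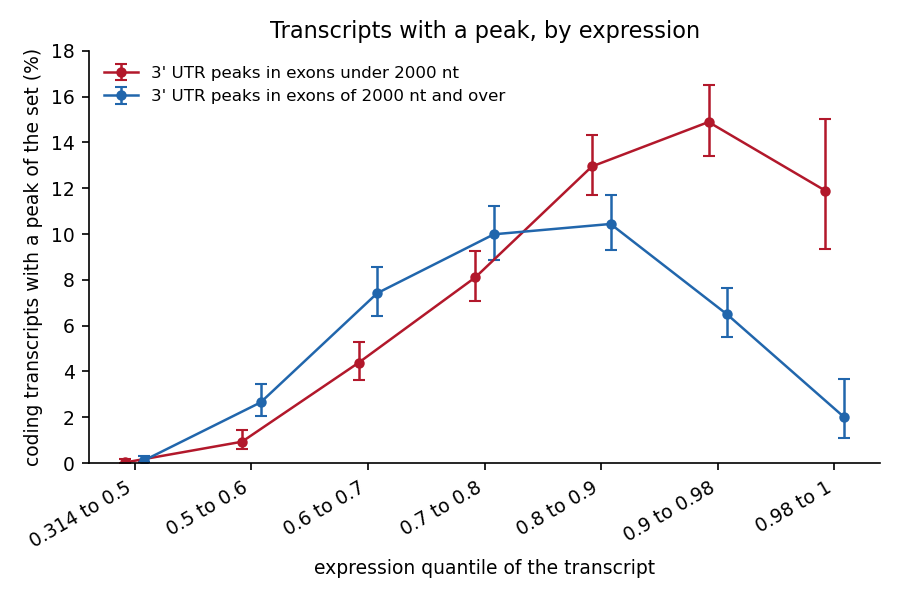
Coding transcripts with a peak of the set (%, vertical axis, bars are 95% Wilson intervals) by expression quantile (horizontal axis), for 3' UTR peaks in exons under 2000 nt (red) and longer (blue). Blue is above red up to 0.8 and red above blue from 0.8, with 14.9% against 6.49% at 0.9 to 0.98.

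Within bins of expression the scores of the regions and of peaks in longer exons were close. At quantiles of 0.5 to 0.6 the medians were 3.38 for 20 regions and 3.57 for 70 peaks of longer exons. At 0.6 to 0.7 they were 3.48 and 3.49, at 0.7 to 0.8 3.26 and 3.25, at 0.8 to 0.9 3.03 and 3.18, at 0.9 to 0.98 3.17 and 3.13, and above 0.98 2.90 and 2.83. Within these bins the intervals of the medians overlapped, and above 0.9 as a whole the difference was 0.046 (-0.18 to 0.26), with the sign turned. Across the 1193 regions, which share 1 table and in part a transcript, Spearman's rho of score with expression quantile was -0.11 and with exon length 0.013.

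Most transcripts carried a single region. There were 850 with 1 (84.5%), 128 with 2, 26 with 3, 1 with 4 and 1 with 5. In longer exons 35.6% of transcripts had 2 or more (32.5 to 38.8%), against 15.5% here (13.4 to 17.9%). The exons themselves, whose length the rule used, had medians of 3295 and 1259 nt, so this is a description of exon length classes. NFYA, the subunit of the CCAAT-binding factor NF-Y, had 5 in exon 10 (1641 nt), at positions 1471, 1617, 1818, 2048 and 2637 with scores of 2.66, 3.73, 2.13, 2.25 and 3.10. The drug exporter ABCC1 had 4 in exon 31 (1901 nt), with scores of 3.96, 5.42, 3.03 and 2.78 from 5' to 3'. DOCK5 had 3, of which the first stood at 7.91 and the others at 3.85 and 3.34. DGCR8, the partner of DROSHA in microRNA processing, had 3 (4.93, 2.14 and 3.64), and DNAJC11, a mitochondrial J-domain protein, had 3 (4.72, 3.07 and 2.76). These 3 had the highest scores among the 26 transcripts with 3 regions. Over all 26, the first region scored highest in 10, the middle one in 7 and the last in 9. Neighbouring regions on a transcript were a median of 372 nt apart (325 to 424, n = 187 pairs), and never under 71 nt.

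Many of the transcripts had no peak outside the 3' UTR. This held for 439 of 1006 (43.6%, 40.6 to 46.7%), against 279 of 877 transcripts with a 3' UTR peak in a longer exon (31.8%, 28.8 to 34.97%), a difference of 11.8 points (7.45 to 16.1). A region was the only peak of any kind in 375 (37.3%), against 170 (19.4%), a count that also reflects how many 3' UTR peaks an exon holds. A stop codon peak accompanied the region in 353 transcripts (35.1%, 32.2 to 38.1%), against 45.5% (42.2 to 48.8%), and a coding sequence peak in 195 (19.4%, 17.1 to 21.9%), against 33.3% (30.3 to 36.5%). The differences were -10.4 percentage points (-14.8 to -5.97) and -13.9 points (-17.9 to -9.94). Peaks at the transcript start went the other way, in 13.0% (11.1 to 15.2%) against 9.69% (7.91 to 11.8%), a difference of 3.33 points (0.44 to 6.18). The groups also differed in expression, with the medians given above, and its part in these differences was not tested.

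In 294 transcripts with 1 region and 1 stop codon peak, the region lay a median of 429 nt downstream (400 to 460). Its score was above that of the stop codon peak in 130 (44.2%, 38.7 to 49.9%), and the median difference was -0.25 (-0.35 to 0.00087). For 3' UTR peaks in longer exons this held in 91 of 241 transcripts (37.8%, 31.9 to 44.0%), with a median difference of -0.44 (-0.74 to -0.20). The intervals of the sets overlapped. The region and the stop codon peak were very unequal in some genes. In DDX23 the region scored 7.30 and the stop codon peak 2.27. In POLR3B, the second-largest subunit of RNA polymerase III, the scores were 5.90 and 2.34, and in TTC4, a chaperone cofactor, 5.76 and 2.24. The reverse held in TRIO, a guanine nucleotide exchange factor (2.13 and 6.67), GTF3C2, a TFIIIC subunit (2.15 and 5.74), and RHBDF2, an inactive rhomboid protein (2.31 and 5.83). These 6 were chosen as the extremes after their values were seen.

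**Figure D5:**
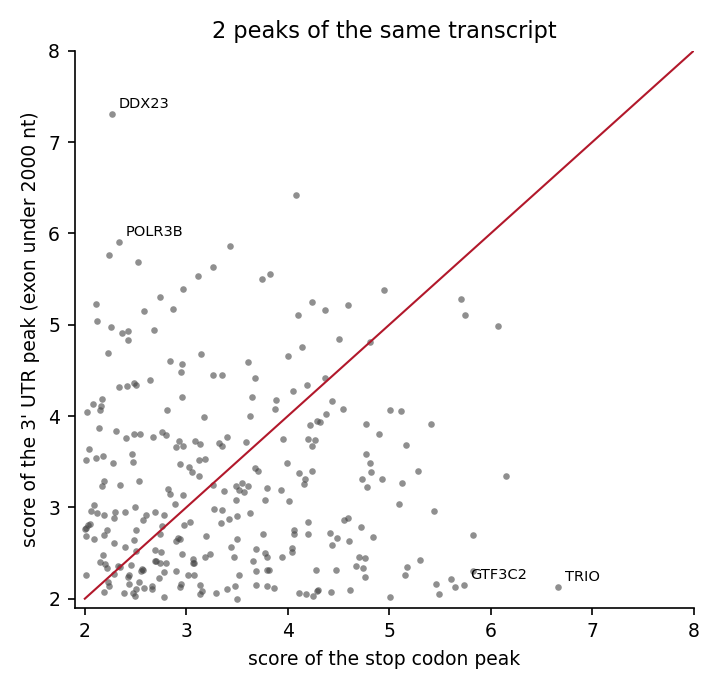
Score of the 3' UTR region (vertical axis) against that of the stop codon peak (horizontal axis) in the 294 transcripts with 1 of each, with a line where both are equal. Points spread widely on either side, with 130 above the line, DDX23 at 7.30 against 2.27 and TRIO at 2.13 against 6.67.

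By gene family, the background was 6.69% of 15003 expressed coding genes with a region, and 5.83% with a 3' UTR peak in a longer exon. C2H2 zinc finger genes of the ZNF series, most of them repressors of transcription, were under it for regions and above it for longer exons. Of 430, 12 had a region (2.79%, 1.6 to 4.81%) and 38 a peak in a longer exon (8.84%, 6.51 to 11.9%), led among the regions by ZNF827 (5.41), ZNF410 (5.22) and ZNF362 (4.08). Their median expression quantile was 0.567. Of all coding transcripts at quantiles of 0.5 to 0.6, 0.93% had a region (0.60 to 1.45%) and 2.65% a peak in a longer exon (2.04 to 3.44%). Against that bin both ZNF shares were higher, so the place of the regions under the background depends on the comparison.

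Solute carriers, the membrane transporters of sugars, amino acids, ions and nucleotides, were above the background for regions and at it for longer exons. Of 239, 27 had a region (11.3%, 7.88 to 15.9%) and 14 a peak in a longer exon (5.86%, 3.52 to 9.59%). The strongest were SLC37A3 with 5.51 and 4.88, the choline transporter-like SLC44A2 with 4.68 and SLC12A8 with 4.28. The glucose transporter SLC2A1 scored 3.99 and the lactate exporter SLC16A3 2.18. The interval of the solute carriers did not reach down to the background, though their median quantile of 0.637 was low.

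RAB GTPases, which direct vesicle traffic, had a region in 5 of 53 (9.43%, 4.10 to 20.3%), namely RAB3D (4.59), RAB40C (3.92, with 3 regions), RAB8A (3.64), RAB26 (3.51) and RAB17 (2.97). RNF ubiquitin ligases had one in 7 of 68 (10.3%, 5.08 to 19.8%), led by RNF145 (5.16), RNF121 (3.67) and RNF126 (3.42). TMEM genes had one in 13 of 175 (7.43%), translation initiation factors in 3 of 57 (5.26%; EIF3B 4.18, EIF2B1 3.77, EIF4G1 2.05) and ubiquitin-conjugating enzymes in 1 of 33 (UBE2H, 2.26). All of these intervals covered 6.69%.

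Immediate early genes, which respond first to growth factors and stress, had a region in 7 of 40 (17.5%, 8.75 to 31.95%). IER2 scored 5.17, the stress sensor GADD45B 4.31, the kinase SGK1 3.75, the transcription factor KLF4 3.50, the phosphatase DUSP6 2.22, the orphan nuclear receptor NR4A1 2.14 and JUNB 2.00. Among chromatin modifiers 5 of 36 had one (13.9%, 6.08 to 28.7%), among them the remodeller CHD4 (4.55), the methyltransferase EHMT1 (3.63 and 3.11), the deacetylase HDAC3 (2.73) and the remodeller CHD8 (2.09). Of 20 m6A machinery genes 2 had one, the readers IGF2BP2 (3.94) and YTHDF1 (2.52). The share of immediate early genes lay above the background with its interval, and they were highly expressed, with a median quantile of 0.928. Of all coding transcripts at quantiles of 0.9 to 0.98, 14.9% had a region (13.4 to 16.5%). The interval of the immediate early genes covers that share.

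Housekeeping lists were highly expressed. No cytosolic ribosomal protein gene of 75 had a region (upper Wilson limit 4.87%), at a median quantile of 0.993. Only 8 of the 75 had a peak of any kind, and 2 had a 3' UTR peak in a longer exon. Mitochondrial ribosomal proteins had one in 3 of 75 (MRPL45 3.12, MRPS2 2.66, MRPS12 2.15) and proteasome subunits in 1 of 37 (PSMD9 2.44). The respiratory chain list had 2 of 78, which were ATP5SL (2.20) and COX7A2L (2.03). Neither is a core subunit, since COX7A2L helps assemble supercomplexes and ATP5SL was picked up by its symbol. The chaperone list had 3 of 80, but only DNAJC11 and DNAJA3 (3.77) are chaperones, and HSPG2 was picked up by its symbol. Of 17 glycolysis genes 2 had a region (PFKL 2.39, PKM2 2.12), and of 41 cyclin and CDK genes 3 (CDK10 3.23, CCNL2 2.75, CDK9 2.11). Of the 12 plasma protein genes of the liver above the lowest quantile, 0 had a region (upper Wilson limit 24.2%). Of these lists, only the cytosolic ribosomal proteins had an interval that ended below 6.69%.

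Regions were unevenly spread over chromosomes. Chromosome 16 held 121 (10.1%), chromosomes 1, 17 and 19 held 117 each (9.81%) and chromosome 13 held 6. These counts also follow the number of transcripts. On chromosome 1, 6.55% of expressed coding transcripts had a region, close to the 6.59% over all. The shares were 10.9% on chromosome 17, 8.23% on chromosome 19 and 1.65% on chromosome 13. Of the expressed coding transcripts of chromosome 16, 12.2% had a region (10.0 to 14.7%) and 7.58% a 3' UTR peak in a longer exon (5.88 to 9.71%). On chromosome 10 it was 2.87% (1.8 to 4.55%) against 6.93% (5.15 to 9.26%). These chromosomes were singled out after their values were seen.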

How the data were processed

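Cells labelled HepG2 gave 4 m6A-IP and 3 input libraries, grouped by title. The authors deposited 1 table of 25918 transcripts without values per library. Expression is deposited as a quantile per transcript, a fraction between 0 and 1. Its peak score, deposited without a stated scale, position, exon number, exon length and segment are lists with 1 entry per peak. For aligner, peak caller and build nothing was given in the sources used here. Peaks depend on the authors' threshold, as no score is under 2.00.

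A table entry was taken as a GENCODE release 29 transcript where symbol (present or former), strand, chromosome and genomic span were identical and each of its peaks fell into an exon with the listed number and length. Of 2599 matched transcripts, 653 had peaks. The others could not be checked by exon. Exact matches covered 9.47% of the regions (median score 3.18, highest 5.56), and the match by last exon (span difference up to 300 nt, assigned to the 5' end) 30.9%. Medians have exact order statistic intervals, shares Wilson intervals, densities exact Poisson intervals (all 95%), and differences intervals combined from these. The interval, motif and density computations were tested on simulated data. Python 3.11.15, pandas 2.3.3, NumPy 2.4.6 and SciPy 1.17.1 were used. Named genes are the 15 highest scores, the 5 genes with most regions (ties by highest score), the 5 shortest exons, the neighbours of the limit and up to 3 per list, with further members where stated or where a list had few. The regions and the 18 gene lists were chosen with earlier results of these data known. In 4 exons, listed under more than 1 transcript, 9 regions may repeat a site (DPH1 and OVCA2, RAB8A, DEDD2, RBM22). Some members that the rule for named genes or windows selects are not reported here.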

Additional observations from a re-analysis of the deposited data

How the results depend on the processing

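Of 43 alternative values, 30 stayed within the 95% interval of the reported value. With scores of at least 3, the median score was 3.81, the share of transcripts with a single region 90.4% and the share of genes with a region 4.01%, since the threshold removes low scores. With exon limits of 1000 and 3000 nt, the median expression quantile was 0.888 and 0.847, and the share of all peaks 2.92% and 13.9%. RRACH was found within 30 nt of 82.1% and within 100 nt of 99.1% of regions (56.25% and 94.4% of distant windows). GGACT was within 100 nt of 44.9% (18.7% of distant windows) and AATAAA within 100 nt of 4.67% (9.35% of distant windows). In the match by last exon the distance from the 3' end was 374 nt. Above an expression quantile of 0.9 the score difference from longer exons turned to 0.046 (-0.18 to 0.26), and the cause was not tested. No paired analysis was possible because the deposited table has no column for a single library. The unknown depth limits what can be said of genes without a region, and only 113 regions had an exact position.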
